A study of Saccharomyces cerevisiae and Saccharomyces paradoxus with 173 samples.

Results

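Glycogen and trehalose are the reserve carbohydrates of budding yeast, and 10 genes of their metabolism are described here out of 6172 genes measured. The 10 genes were taken by their standard names, matched to systematic identifiers through RefSeq annotation. They are GSY1 (YFR015C), GSY2 (YLR258W), GLC3 (YEL011W), GPH1 (YPR160W), GDB1 (YPR184W) and PGM2 (YMR105C) for glycogen, and TPS1 (YBR126C), TPS2 (YDR074W), TSL1 (YML100W) and NTH1 (YDR001C) for trehalose. All 10 were present in the table and none had a missing value.

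Glycogen is a branched glucose polymer that is lengthened by glycogen synthase, branched by a separate enzyme and broken down by phosphorylase together with a debranching enzyme. Trehalose is a disaccharide built from UDP-glucose and glucose 6-phosphate by a synthase and phosphatase complex and hydrolysed by trehalases. Both stores are known to build up when growth slows or under stress, and many genes of both pathways are known targets of the general stress response, which protein kinase A holds down.

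The study followed 10 yeast strains after release from a pheromone arrest, in 173 samples on 377 spotted oligonucleotide arrays. The strains YPS183, YPS2055, YPS2060, YPS2066, YPS2067, YPS2073, YPS2079, YPS3060 and YPS3137 are labelled Saccharomyces cerevisiae, and YPS3395 is labelled S. paradoxus. Per the labels' protocols, cells growing in synthetic minimal medium with dextrose at 30 °C were held in late G1 for about 75 min by 4 µM alpha factor, washed, moved to the same medium at 18 °C and divided over 18 flasks. Samples were taken between 0 and 345 min, 18 in most strains, 16 in YPS2067 and YPS3137 and 15 in YPS2060. All strains and times share the minimal medium and the arrest, and the genotypes are given by strain name alone. Each sample was compared with a common reference, RNA of unsynchronised YPS183 cells from rich medium at 30 °C. A value of 0 is therefore the level of that reference, not an absence of transcript, and levels of different genes cannot be set against each other.

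Values are given as log2 ratios of sample to reference. Neither the base of the logarithm nor the direction is stated in the sources used here. Base 2 is assumed, and sample over reference is likely, because the pheromone-induced gene AGA1 had a median of 1.23 at 0 min over the 10 strains and of -1.99 over all samples. There was 1 culture per strain. For changes over time the 10 strains served as replicates, and within a strain the p-values cover only the scatter of samples around a smooth curve. In such bulk samples fewer cells of a type and less RNA per cell cannot be told apart. Of the samples, 8 rested on 1 array, 132 on 2 and 33 on more, and this number limits the precision. The 6 measured MATa-specific genes, which mark the cell type that answers alpha factor, had a mean log2 ratio between -1.31 and 1.45 at 0 min and between -2.30 and -0.12 at 48 min. MF(ALPHA)1, a marker of the opposite mating type, had a median of 0.07 over all samples.

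A pattern of the libraries came before any result on these genes. The sampling times form alternate sets: 0, 48, 87, 135, 176, 218, 251, 284 and 325 min, called set A, and the times between them, called set B. GLC3, the glycogen branching enzyme, lay between 1.17 and 2.35 in the 9 set A samples of YPS3060 and between -0.56 and 0.22 in its 9 set B samples. In YPS3137 its values were 1.42 to 1.85 in set A and 0.05 to 0.99 in set B, and in neither strain did the sets overlap. PGM2, the major phosphoglucomutase, behaved alike in YPS3060, with 0.61 to 1.77 in set A and -0.78 to 0.35 in set B. In YPS3137 its sets overlapped, with 0.90 to 1.81 in set A and -0.24 to 1.06 in set B.

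All 10 genes had a higher mean in set A than in set B in YPS183, YPS2055, YPS2060, YPS2079, YPS3060 and YPS3137. In YPS2055 these differences were 0.04 to 0.23, and its 176 min sample, of set A, held the highest value of 8 genes. By set medians the genes of YPS2055 went both ways: GSY2 was lower in set A (-1.28 against -1.16) and TPS2 higher (0.31 against 0.18). The median difference over the 10 genes was largest in YPS3060, at 1.27, and was 0.77 in both YPS2079 and YPS3137. In YPS2066 it was 0.05. It was -0.14 in YPS2067 and -0.07 in YPS3395, where 1 and 3 of the 10 genes were higher in set A. Over the 10 strains the median difference of the 10 genes was 0.45, against 0.00 for all genes. Tested over strains with limma, no gene passed an adjusted p of 0.05 (0% of all genes), and the adjusted p of the 10 genes ran from 0.325 to 0.527. Before adjustment 9 of the 10 genes and 814 of all genes were under 0.05. Print years of the arrays moved with the sets in part: every set A sample of YPS3060 and YPS3137 had some arrays printed in 2005 or 2006 and no set B sample did. In YPS2079, whose median difference is given above, no array of a known print year was older than 2007.

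**Figure D1:**
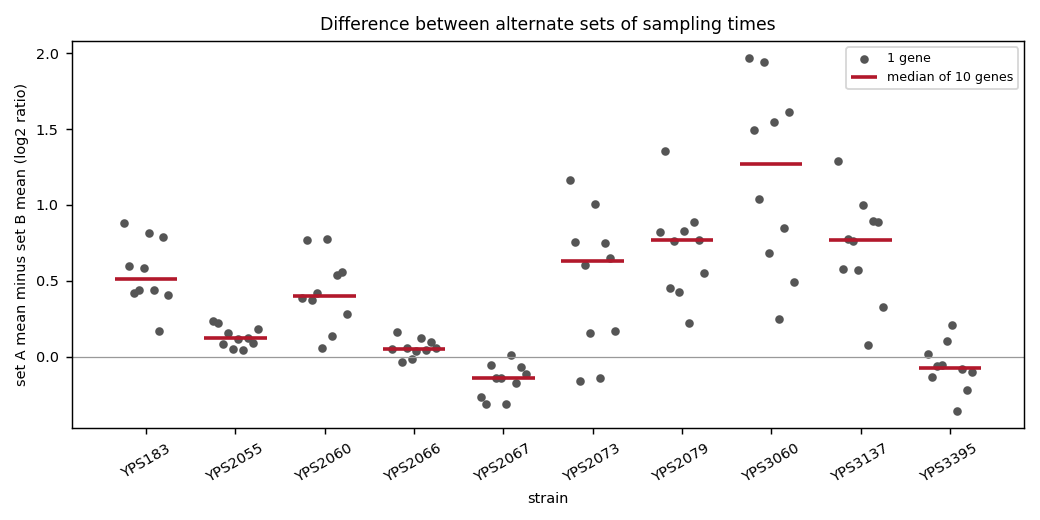
Difference between the means of set A and set B samples, in log2 ratio, for each of the 10 genes (points) in each strain, with the median of the genes as a bar. The medians run from -0.14 in YPS2067 to 1.27 in YPS3060.

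**Figure D2:**
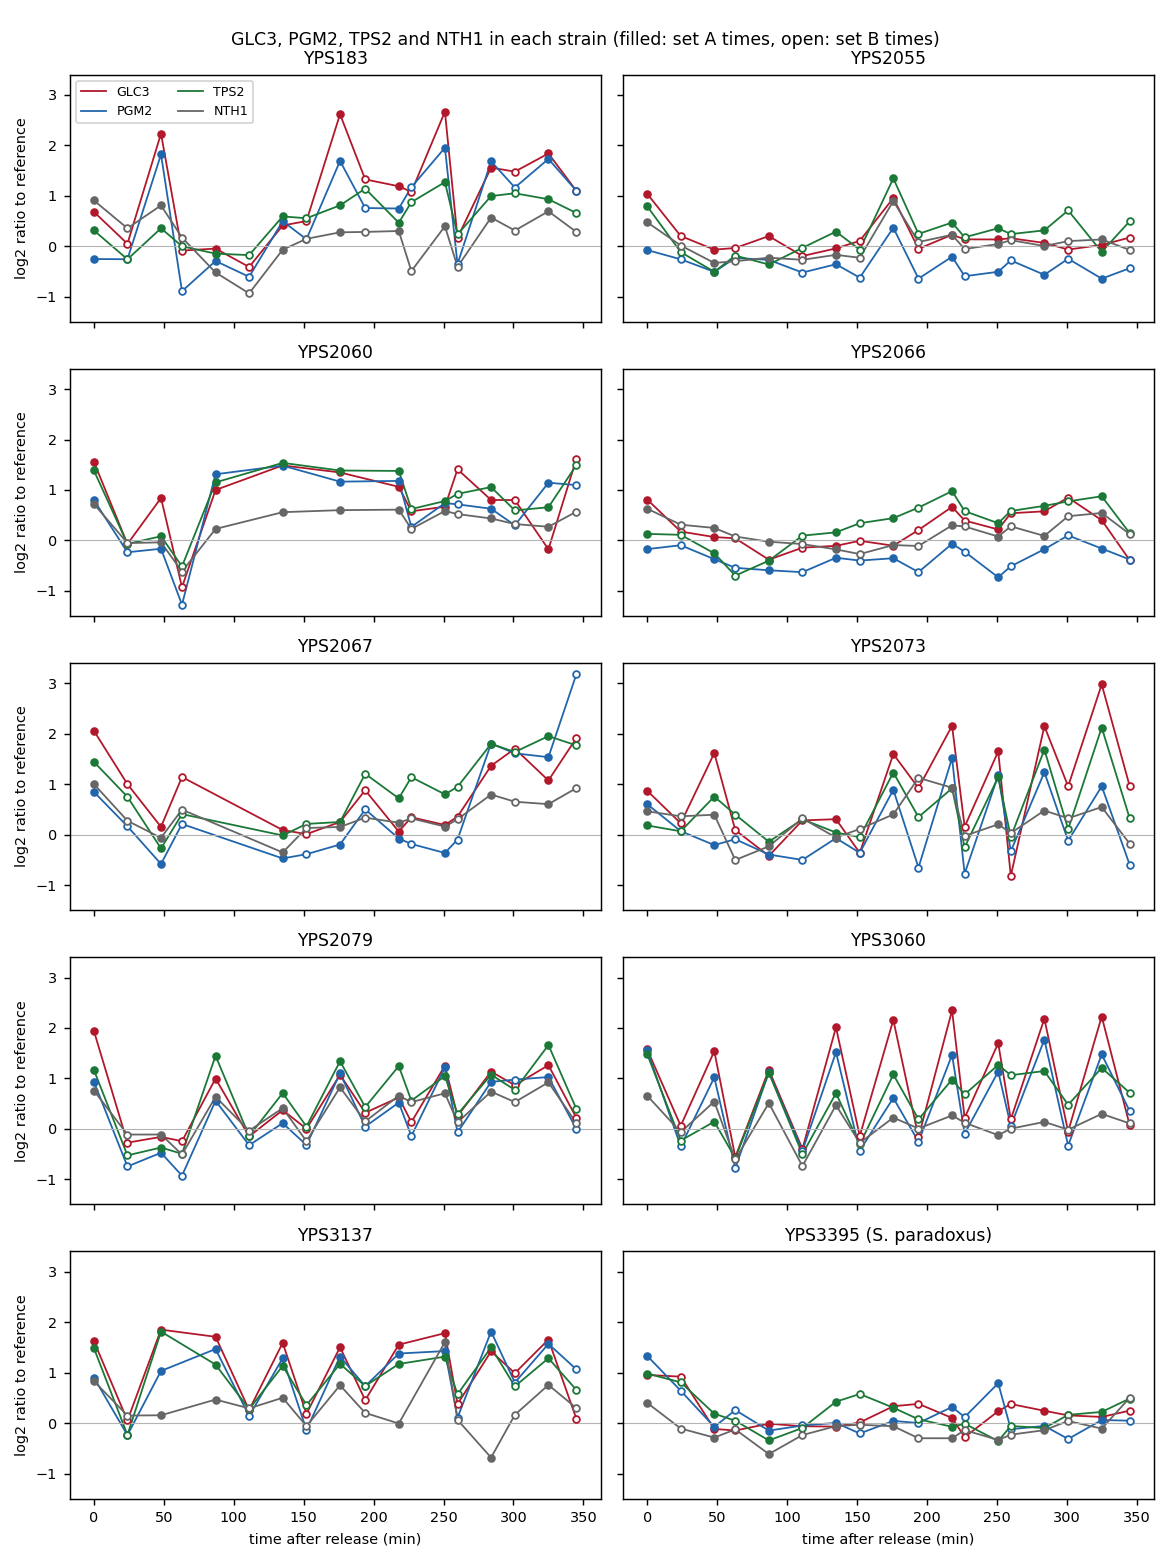
Log2 ratio to the reference of GLC3, PGM2, TPS2 and NTH1 against time after release in min, 1 panel per strain, with filled points for set A times and open points for set B times. The alternation is plain for GLC3 in YPS3060 and YPS3137, and PGM2 ends at 3.18 in YPS2067. The sets of NTH1 in YPS3137 and of TPS2 in YPS3060 overlap.

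The change on release was taken as the 24 min sample minus the 0 min sample in each strain. It was tested over all genes with limma and strain as a block. In every strain, release from the pheromone came together with a wash and a move to the same medium at a lower temperature. The parts of these steps in any change from 0 min cannot be told apart. Of the 10 genes 4 fell and none rose, against 1.72% of all genes that fell and 2.45% that rose at an adjusted p of 0.05. All 10 mean changes were negative, with a median of -0.57 beside -0.02 for all genes. The 4 were GLC3 and PGM2 of the glycogen genes and TPS2 and NTH1 of the trehalose genes. This comparison sets a set B time against a set A time, and none of the 4 passed once each time was taken relative to its own set, as described below.

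Among the genes that make glycogen, GLC3 had log2 ratios between 0.68 and 2.06 at 0 min, with a median of 1.30, and between -0.27 and 1.00 at 24 min, with a median of 0.12. It was lower at 24 min in 10 of 10 strains although the ranges of the groups overlapped. The mean change was -1.08 ± 0.18 (SE, n = 10 strains, limma adjusted p = 0.0083), from -2.22 in YPS2079 to -0.03 in YPS3395.

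PGM2, which interconverts glucose 1-phosphate and glucose 6-phosphate ahead of both pathways, ranged from -0.25 to 1.56 at 0 min and from -0.75 to 0.64 at 24 min. It was lower at 24 min in 9 of 10 strains, with YPS2066 at 0.08. Its change was -0.78 ± 0.19 (SE, n = 10 strains, limma adjusted p = 0.037). GSY2, the main glycogen synthase, had a mean difference of -0.69 (adjusted p = 0.053), and GSY1, the second synthase, had a mean difference of -0.31 (adjusted p = 0.208). Neither passed the threshold.

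Neither gene that breaks glycogen down passed. GPH1, the phosphorylase, differed by -0.33 and GDB1, the debranching enzyme, by -0.02, with limma adjusted p of 0.245 and 0.948. GDB1 was higher at 24 min in 6 of 10 strains.

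Among the trehalose genes, NTH1, the neutral trehalase that hydrolyses the sugar, had the most even change. Its log2 ratios were 0.40 to 1.00 at 0 min and -0.11 to 0.36 at 24 min, so that the groups did not overlap. It fell in 10 of 10 strains, by a mean of 0.57 (SE 0.08, n = 10 strains, limma adjusted p = 0.0036).

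TPS2, the trehalose 6-phosphate phosphatase, had 0.13 to 1.49 at 0 min with a median of 1.07, and -0.53 to 0.81 at 24 min with a median of -0.09. All 10 strains were lower at 24 min, but YPS2066 by 0.02 only and YPS3137 by 1.72, and the ranges overlapped. The mean change was -0.91 ± 0.19 (SE, n = 10 strains, limma adjusted p = 0.021). TSL1, a regulatory subunit of the synthase complex, had a mean difference of -0.57 (adjusted p = 0.137) and TPS1, the synthase itself, one of -0.26 (adjusted p = 0.317), and neither passed.

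When each value was first taken relative to the mean of the other times of its own sampling set, none of the 10 genes passed in limma, with 0.486% of all genes called lower, and 2 of the 10, NTH1 and TPS2, were under 0.05 before adjustment. The change of NTH1 was then -0.39 (limma adjusted p = 0.0547, lower in 9 of 10 strains) and that of TPS2 -0.58 (adjusted p = 0.112). GLC3 stood at -0.48 (adjusted p = 0.350) and PGM2 at -0.20 (adjusted p = 0.620), while GPH1 and GDB1 turned to 0.25 each. Among the 7 strains with 2007 prints alone at both times, GLC3 (-1.01) and NTH1 (-0.60) passed, with adjusted p of 0.038 and 0.0091, and TPS2 (-0.79) and PGM2 (-0.60) did not, where 1.73% of all genes were called lower. Leaving out YPS2060, YPS2079, YPS3060 or YPS3137 in turn left 2 genes called, GLC3 and NTH1. Of the MATa-specific genes 3 of 6 fell over the same interval, their mean going from a range of -1.31 to 1.45 at 0 min to one of -1.68 to 0.21, and their part in the result was not tested.

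The 48 min samples belong to the same set as the 0 min samples, and the comparison shares those 0 min samples with the one above. NTH1 fell in 10 of 10 strains, from 0.40 to 1.00 at 0 min to -0.33 to 0.81 at 48 min, and the groups overlapped. Its mean change was -0.55 ± 0.11 (SE, n = 10 strains, limma adjusted p = 0.018). It was the only 1 of the 10 genes past the threshold, where 2.04% of all genes were called lower and 1.78% higher, and without YPS2060 or YPS2079 its adjusted p was 0.056 and 0.051. TPS2 had a mean difference of -0.74 (adjusted p = 0.093), GLC3 of -0.52 (adjusted p = 0.422) and PGM2 of -0.50 (adjusted p = 0.395).

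The strains were split at 48 min by the print year of their arrays. In the 6 strains with 2007 prints alone 6 of the 10 genes fell: GLC3 by 1.27, TPS2 by 1.17, PGM2 by 0.97, GSY2 by 0.82, NTH1 by 0.76 and TPS1 by 0.30, with limma adjusted p from 0.0095 to 0.0493, where 3.55% of all genes were called lower. In the 4 strains with some older prints at either time (YPS183, YPS2073, YPS3060 and YPS3137) none passed in limma and 1 was under 0.05 before adjustment, and 7 of the 10 had positive mean differences, from 0.08 for TSL1 to 0.62 for GLC3 and 0.82 for GPH1. YPS183 at 48 min stood highest, with changes of 2.24 for TSL1, 2.07 for PGM2 and 1.55 for GLC3. Strain and print year cannot be told apart in this split. In YPS183 the 0 min sample had 2007 prints alone and the 48 min sample older prints alone. Time and print year thus cannot be told apart in its changes either. All 6 MATa-specific genes and all 3 pheromone genes fell by 48 min.

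**Figure D3:**
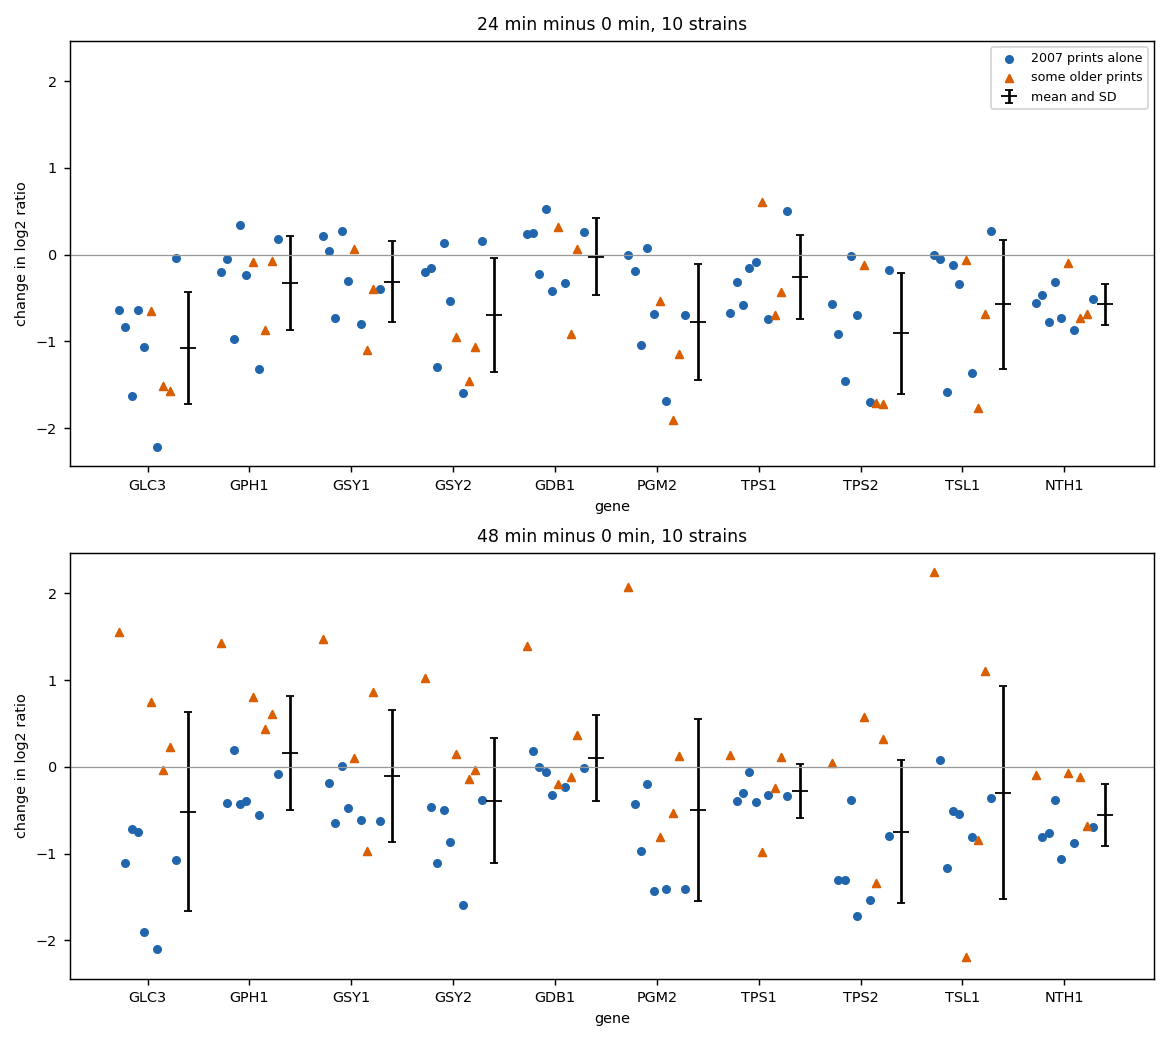
Change in log2 ratio from 0 min to 24 min (upper panel) and to 48 min (lower panel) for each gene, with 1 point per strain, circles for strains with 2007 prints alone at both times and triangles for the others, and the mean with SD over 10 strains as a bar. All 10 strains lie below 0 for GLC3, TPS2 and NTH1 at 24 min and for NTH1 at 48 min.

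Other genes of the same pathways gave few calls on release. Among 12 partners in glycogen metabolism, GAC1, which targets protein phosphatase to glycogen synthase, fell by 0.60 at 24 min (limma adjusted p = 0.021, 10 of 10 strains) and none was called at 48 min. None of 4 trehalose partners was called at either time. Of 8 hexose phosphate enzymes, the hexokinase HXK1 fell at 24 min, by 1.11 (adjusted p = 0.016, 10 of 10 strains). None of 15 upstream regulators (protein kinase A subunits, Snf1 and stress factors among them) was called at either time. Of 20 stress genes, GPD1, a glycerol 3-phosphate dehydrogenase, fell at both times, with changes of -1.42 at 24 min and -1.51 at 48 min (adjusted p = 0.029 and 0.0053).

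Between the early samples (mean of 24 and 48 min) and the late ones (mean of 325 and 345 min) each window holds 1 time of each set. The early window is made of the samples that end the first 2 comparisons, so that all 3 share samples. Here 3 of the 10 genes rose and none fell, against 4.47% of all genes that rose and 4.86% that fell. The 3 were TPS1, TPS2 and TSL1, which encode the synthase, the phosphatase and a regulatory subunit of the trehalose synthesis complex. The median change of the 10 genes was 0.30 beside 0.00 for all genes.

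TPS1 had early levels of -0.30 to 0.61 with a median of -0.08 and late levels of -0.04 to 0.94 with a median of 0.49. It was higher late in 10 of 10 strains, between 0.12 in YPS3060 and 0.76 in YPS2073, though the ranges of the windows overlapped. Its change was 0.45 ± 0.07 (SE, n = 10 strains, limma adjusted p = 0.0053).

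TPS2 went from -0.45 to 0.79 early to 0.19 to 1.86 late, with medians of 0.03 and 0.97, and was higher in 9 of 10 strains, with YPS3395 at -0.14. Its change was 0.79 ± 0.15 (SE, n = 10 strains, limma adjusted p = 0.010). TSL1 went from a median of -0.34 to one of 0.59, with a change of 0.64 ± 0.17 (SE, n = 10 strains, limma adjusted p = 0.032). YPS2067 had the largest changes of both, 1.62 for TPS2 and 1.95 for TSL1. Both were thus higher late in most strains, but the calls were not equally firm: among the 6 strains with 2007 prints alone TPS1 alone passed (0.50, adjusted p = 0.023), where 2.4% of all genes were called higher, TPS2 having 0.85 (adjusted p = 0.071) and TSL1 0.69 (adjusted p = 0.162). TSL1 also lost its call without YPS2055, YPS2060, YPS2073, YPS2079 or YPS3060, with adjusted p between 0.0502 and 0.0822.

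No glycogen gene passed in this comparison. PGM2 had a mean difference of 0.70 (limma adjusted p = 0.080), made up of 2.57 in YPS2067, 1.32 in YPS2060 and 1.12 in YPS2079 with 3 strains below 0. GLC3 had 0.36 (adjusted p = 0.113), GSY1 0.21, GSY2 0.19 and GDB1 0.17, and GPH1 had -0.21. NTH1, which acts against the synthesis genes, had 0.24 (adjusted p = 0.111).

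**Figure D4:**
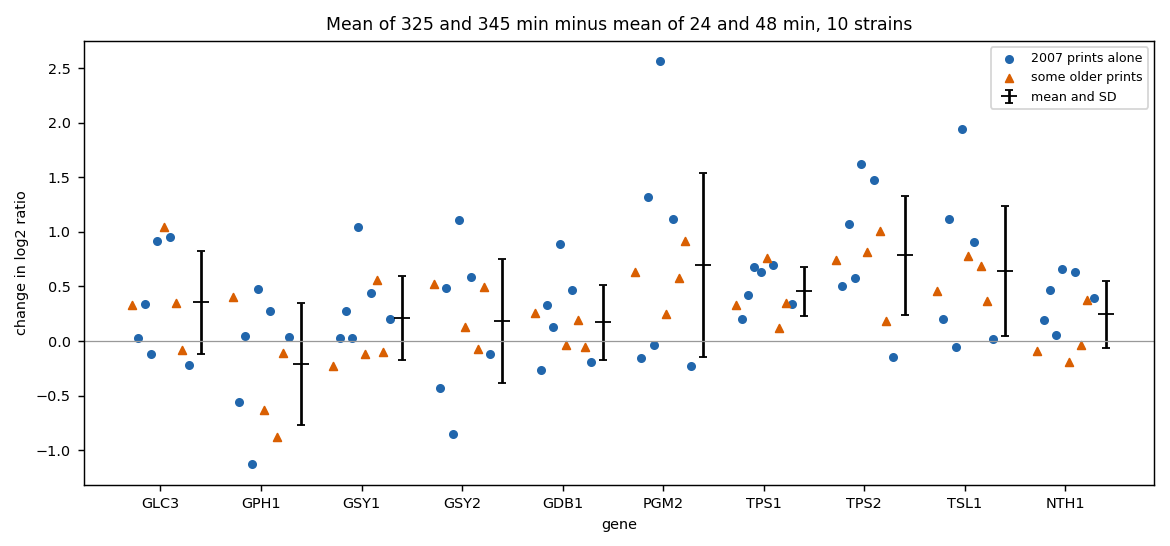
Mean log2 ratio at 325 and 345 min minus that at 24 and 48 min for each gene, 1 point per strain, with triangles for strains that had older prints at any of these times and the mean with SD over 10 strains as a bar. TPS1 lies above 0 in 10 of 10 strains, and YPS2067 has the highest PGM2 value, 2.57.

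Of the partners, TPS3, a subunit of the trehalose complex related to TSL1, rose late by 0.21 (limma adjusted p = 0.021, 10 of 10 strains), 1 of 4 trehalose partners. UGP1, which makes the UDP-glucose used by both pathways, rose by 0.59 (adjusted p = 0.035, 9 of 10 strains), 1 of 8 hexose phosphate enzymes. Of 15 upstream regulators 2 rose, the protein kinase A subunits TPK2 (0.36) and BCY1 (0.24). Of 20 stress genes 3 rose, GPD1 (1.27) and SOD2 (0.41) among them, while SPI1 (-0.70) and DDR48 (-0.64) fell, and none of the 12 glycogen partners was called. Of the 6 MATa-specific genes none was called, and of the 3 pheromone genes FIG1 fell by 0.46.

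Time courses were fitted in 1 model with a smooth curve for each strain, and a gene was said to vary where its adjusted p was under 0.05 and its fitted curve spanned at least 1. Of 100 curves (10 genes in 10 strains) 3 varied. In YPS2067 PGM2 and TPS2 did so, where 8.3% of all genes varied. In YPS183 NTH1 did so, where 3.05% varied. In the other 8 strains none did, where 3.11% of the gene curves varied, although 5 of the 80 met the rule on unadjusted limma p.

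PGM2 in YPS2067 started at 0.85, lay between -0.58 and 0.50 from 24 to 260 min and then stood at 1.80, 1.61, 1.54 and 3.18 at 284, 301, 325 and 345 min, the last being the highest value of the 10 genes in any sample. Its fitted curve spanned 3.05 (limma adjusted p = 0.0036). TPS2 in YPS2067 had 1.44 at 0 min, -0.27 at 48 min, and 1.64 to 1.95 from 284 min on, with a fitted span of 1.90 (adjusted p = 0.021). TSL1 in the same strain lay between 1.32 and 2.09 at the same 4 times but did not pass (adjusted p = 0.078). YPS2067 had 2007 prints alone.

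NTH1 in YPS183 went from 0.91 at 0 min to -0.93 at 111 min and stood at 0.28 at 345 min. Its fitted span was 1.55 (limma adjusted p = 0.044), and with a stiffer curve of 5 degrees of freedom in place of 7 the adjusted p was 0.232. The shape of the curves, apart from their level, was compared between each strain and the average of the remaining S. cerevisiae strains. By limma none of the 100 passed, against 2.17% of the gene curves of all strains, while 6 reached 0.05 before adjustment. PGM2 in YPS2067 came nearest, with an adjusted p of 0.066. With a term for the sampling set added there were 23 varying curves, where 6.71% of the gene curves of all strains varied, and 11 that differed in shape, where 5.33% did.

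The level of each gene in each strain was the mean of its fitted curve over the 12 times shared by all strains, set against the average of the S. cerevisiae strains other than itself. In YPS2055 and YPS2066 all 10 genes lay below the other strains. In YPS2055 8 of the 10 were lower at an adjusted p of 0.05, where 4.8% of all genes were, and in YPS2066 6 were, where 7.55% of all genes were. The median difference of the 10 genes in YPS2055 was -0.55.

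GPH1, the glycogen phosphorylase, stood farthest apart. Its level was -1.08 in YPS2055 and -0.92 in YPS2066, and between 0.03 in YPS3060 and 0.56 in YPS2060 in the other 8 strains. The difference was -1.19 ± 0.19 in YPS2055 (SE of the fit, 1 culture, limma adjusted p = 1.5e-06) and -1.01 ± 0.19 in YPS2066. These were the only 2 of the 100 differences that also reached 1 in size, which 0.259% of all genes did in YPS2055 and 0.518% in YPS2066, both counted as lower.

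The glycogen synthase GSY2 had levels of -1.08 in YPS2055 and -1.06 in YPS2066, the next being -0.58 in YPS2073 and the highest 0.40 in YPS183. Its differences were -0.86 and -0.84. PGM2 was lower by 0.86 and 0.79, with levels of -0.37 and -0.30 where the next strain, YPS3395, had 0.21. The trehalose gene TSL1 differed by -0.77 and -0.69, and TPS1 by -0.32 and -0.26. YPS2055 and YPS2066 were the lowest strains for GPH1, GSY2, PGM2, TPS1 and TSL1, and they lay next to each other in each of these orders, by less than the SE of a difference.

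GLC3 was lower in YPS2055 (-0.67, limma adjusted p = 0.028), and its difference in YPS2066 was -0.56 (adjusted p = 0.053). GSY1 was lower in both, by 0.34 and 0.42, and TPS2 in YPS2055, by 0.44. GDB1 and NTH1 passed in neither strain, with differences of -0.22 and -0.24 in YPS2055 and -0.05 and -0.08 in YPS2066. Levels within a set used its times shared by all strains, for set B 24, 260, 301 and 345 min. Within set A alone 9 genes were lower in YPS2055, where 5.95% of all genes were, and 7 in YPS2066, where 8.8% were. Within set B alone 3 and 2 were, where 1.88% and 2.17% of all genes were, with GPH1 and GSY2 past the threshold in both strains and both sets. The median difference of the 10 genes was -0.75 in set A in both strains, and -0.42 and -0.27 in set B. Both strains had 2007 prints alone. All 6 MATa-specific genes also had lower levels in both strains, 4 of them called in YPS2055 and 3 in YPS2066, and the mean of the 6 was -1.85 and -1.72, the lowest of the 10 strains, the highest being -0.68 in YPS3395. Their part in the result was not tested.

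**Figure D5:**
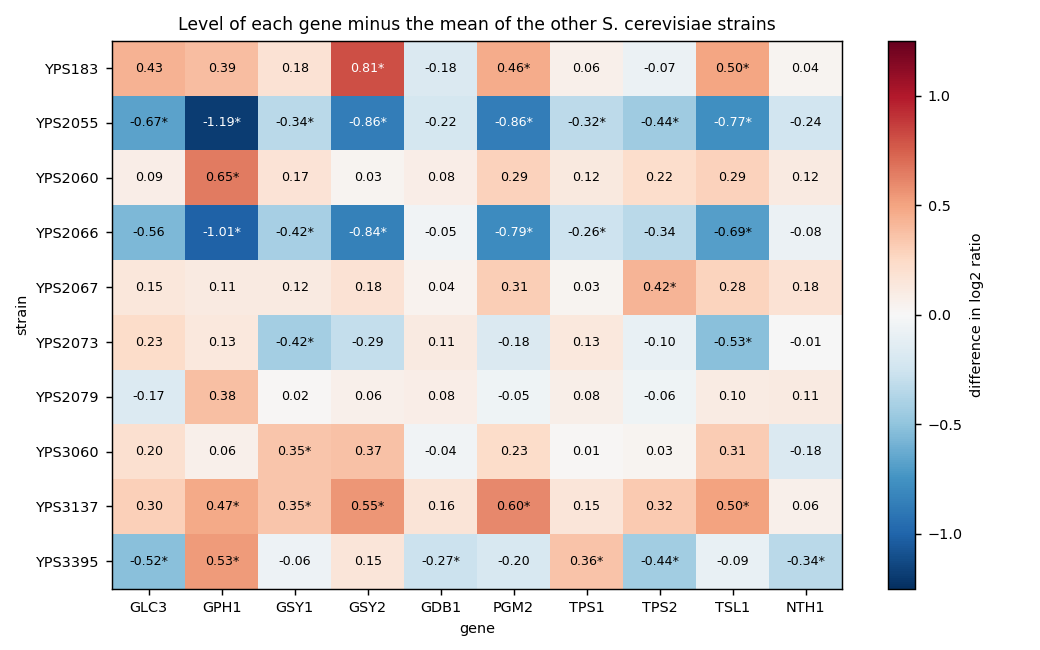
Difference in mean log2 ratio over the 12 shared times between each strain (rows) and the average of the remaining S. cerevisiae strains for each gene (columns), in blue where lower and red where higher, with an asterisk at an adjusted p under 0.05. The rows of YPS2055 and YPS2066 are below 0 throughout, down to -1.19 for GPH1.

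Partner genes were counted in the same 2 strains. Of 20 stress genes 8 were lower in YPS2055, with HSP12 (-1.07) and DDR2 (-0.76) the lowest, and none was higher. In YPS2066 9 were lower, HSP26 (-0.74) and MSC1 (-0.60) the lowest, and YGP1 was higher by 0.71. HXK1 was lower by 1.74 and 1.20 and EMI2, related to glucokinase, by 0.51 and 0.47, and UGP1 was lower in YPS2055 by 0.58, so that 3 and 2 of 8 hexose phosphate enzymes were lower. Of the 12 glycogen partners none was lower in YPS2055 and 4 were in YPS2066, where GLC7, the protein phosphatase catalytic subunit, had -0.36. The neutral trehalase NTH2 was lower in YPS2066 by 0.49.

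In the other strains the calls went both ways. The average that each was set against includes YPS2055 and YPS2066, whose low levels raise the differences of the other strains in part. In YPS3137 5 genes were higher, where 16% of all genes were: PGM2 by 0.60, GSY2 by 0.55, TSL1 by 0.50, GPH1 by 0.47 and GSY1 by 0.35, and within set B GSY2 alone passed, where 2.88% of all genes did. In YPS183, the strain of the reference RNA, 3 were higher, where 15.7% of all genes were. They were GSY2 by 0.81, TSL1 by 0.50 and PGM2 by 0.46, of which GSY2 passed in either set.

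In YPS2073, where 17 of 18 samples had some older prints, TSL1 (-0.53) and GSY1 (-0.42) were lower, beside 16.4% of all genes. In YPS2060 GPH1 was higher by 0.65, beside 3.11% of all genes. The average it was set against was -0.10, with YPS2055 and YPS2066 in it. The GPH1 level was 0.56 in YPS2060, 0.51 in YPS3395, 0.40 in YPS3137 and 0.32 in YPS183. In YPS2067 TPS2 was higher by 0.42, beside 3.76%, with 0.92 in set B and -0.02 in set A. Within set B alone 7 of the 10 genes were higher in YPS2067, where 4% of all genes were, with a median difference of 0.77 and up to 1.20 for PGM2. The shared set B times were 24, 260, 301 and 345 min, with none from 63 to 227 min, so these levels lean on late samples. PGM2 in YPS2067 was at 3.18 at 345 min. Its level was 1.27 over the shared set B times, against a mean of 0.63 over all set B samples of YPS2067. Within set A alone all 10 lay below the other strains, with a median of -0.20, and none passed in limma, although 3 were under 0.05 before adjustment. In YPS3060 GSY1 was higher by 0.35, beside 6.8%, and its difference in set B was -0.08. Within set A alone 6 of the 10 were higher in YPS3060, where 18% of all genes were, with a median difference of 0.66. Within set B alone 9 of the 10 differences were negative, with a median of -0.23, and 1 gene was lower, where 4.96% of all genes were. It was GSY2, with 1.14 in set A and -0.39 in set B (limma adjusted p = 0.039 in set B). In YPS2079 none of the 10 passed in limma, and 1 was under 0.05 before adjustment.

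YPS3395, the S. paradoxus strain, was the lowest strain for TPS2, NTH1 and GDB1 and the highest for TPS1. Fitted against the S. cerevisiae strains, NTH1 (-0.34), TPS2 (-0.44), GDB1 (-0.27) and GLC3 (-0.52) were lower, where 19.4% of all genes were, and TPS1 (0.36) and GPH1 (0.53) were higher, where 20.2% were. The 4 lower genes had no call in set B alone. TPS1 and GPH1 had no call in set A alone (0.09 and 0.20, limma adjusted p = 0.486 and 0.445). Higher in set B alone were TPS1 by 0.48 (limma adjusted p = 0.00027), GPH1 by 0.82 (adjusted p = 0.0027) and GSY2 by 0.56 (adjusted p = 0.00039). For GPH1 the average of the S. cerevisiae strains includes the low levels of YPS2055 and YPS2066. With 1 mean per strain, so that the spread between S. cerevisiae strains entered the test, none of the 10 passed in limma while 2.43% of all genes did. At an unadjusted p under 0.05 there were 2 of the 10 genes, NTH1 (-0.38, adjusted p = 0.150) and GDB1 (-0.32, adjusted p = 0.263), and 933 of all genes. For the divergent species, a weaker match between probe and transcript and a lower transcript level cannot be told apart.

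Several of the genes have a paralog, and the changes of each pair were compared within strains. NTH1 and NTH2, the neutral trehalases, differed in all 3 comparisons. NTH2 had mean differences of 0.02 from 0 to 24 min and 0.19 from 0 to 48 min, so that NTH1 minus NTH2 was -0.59 (SD 0.33) and -0.74 (SD 0.45), negative in 10 of 10 strains. From early to late NTH2 had -0.24 against 0.24 for NTH1, and the difference was 0.49 (SD 0.20), positive in 10 of 10 strains. Each gave a two-sided exact permutation p of 0.00195, the smallest that 10 strains allow, and an adjusted p of 0.0078 over 12 tests. The first 2 comparisons share the 0 min samples, and the late one starts from the 24 and 48 min samples that end them.

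The other 3 pairs did not pass. GSY2 minus GSY1 was -0.38 at 24 min (exact permutation, adjusted p = 0.066, negative in 9 of 10 strains). PGM2 minus PGM1 was 0.63 late (exact permutation, adjusted p = 0.066), and TSL1 minus TPS3 was 0.44 late (exact permutation, adjusted p = 0.066). Probes of such pairs may share target, and how well they tell the paralogs apart was not tested.

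The 10 genes were positively correlated across samples. After each gene was centred within each strain, Pearson's r over the 173 samples ranged from 0.34 (GPH1 with TPS1) to 0.82 (PGM2 with TSL1), with a median of 0.62 over 45 pairs. Centring within each sampling set as well gave a median of 0.53 and a range of 0.28 to 0.75. These are descriptions, since samples of a strain share a culture and all values share the reference. By strain the median r ran from 0.37 in YPS3395 to 0.86 in YPS2079. PGM2 was the gene closest to the mean of the other 9 (r = 0.89) and TPS1 the farthest from it (r = 0.54).

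Outside the 10, the genes with the highest r with their mean over the 173 samples were HXK1 (0.85), DCS1 (0.82), MSC1 (0.81), PNC1 (0.80), GRE3 (0.79), EMI2 (0.77), PIC2 (0.77) and TFS1 (0.76). HXK1 and EMI2 belong to the phosphorylation of glucose, PNC1 is a nicotinamidase, GRE3 an aldose reductase and TFS1 an inhibitor of carboxypeptidase Y. Within sampling sets their r was 0.66 to 0.80, with HXK1 again the highest, and the median over all other genes was -0.01. In single strains r for HXK1 ran from 0.48 to 0.96 and for GRE3 from -0.01 to 0.94.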

How the data were processed

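RNA of 173 samples was measured on 2-colour spotted oligonucleotide arrays against a common reference. The authors deposited 1 log ratio per gene and sample, treated here as log2, made from GenePix arrays with dye swaps combined, per the labels. The sources used here do not give software, background correction, normalization or centring, and sample medians ran from -0.066 to 0.039. The table held 6172 genes, of which 6161 were also in the series matrix with no difference in value. A further 7 columns matched no sample and were not used. Of the identifiers 5554 matched RefSeq names (assembly R64) directly, 192 with a hyphen restored, and 426 did not match.

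Tests used limma 3.58.1 in R 4.3.3 on all genes with p-values adjusted by Benjamini-Hochberg and called under 0.05. Changes over time took strain as a block, because samples of a strain come from 1 culture. Curves were natural splines of time with 7 degrees of freedom per strain in 1 model with 93 residual degrees of freedom. Paralogs were compared by exact sign-flip permutation over 10 strains in Python 3.11.15. The fits were tested on simulated independent noise with seeded changes, which held no sampling sets, print years or shared cultures. Alternatives were quantile normalization, median centring, left-out genes with values beyond 8, print year, sampling set, stiffer curves, YPS183 as comparator, the strain block and each strain left out. Those on older prints alone, on a time relative to its set, and on leaving a strain out of the curve model were chosen after seeing the data.

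The members, gene lists and tests were chosen with earlier results of these data known. Named genes are the 10 members, their paralogs, up to 4 genes of each partner list past the threshold by size, and the 8 other genes with the highest correlation with the mean of the 10. A gene that this rule takes is not reported here.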

Additional observations from a re-analysis of the deposited data

Results flagged for a closer look

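Among the 10 strains, single values stood far from the rest in 3 of 40 groups of values, by the gap to the nearest strain as a share of the range, and chance gives about 1 in 20. All 3 are changes from 0 to 48 min. GDB1 had 1.39 in YPS183, where the nearest strain had 0.37. PGM2 had 2.07 in YPS183, where the nearest strain had 0.13. TPS1 had -0.98 in YPS2073, where the nearest strain had -0.41. The GDB1 and PGM2 values come from the same YPS183 samples and are not independent. The 48 min samples of YPS183 and YPS2073 had arrays of older print years alone. The 0 min sample of YPS183 had no older prints, so time and print year cannot be told apart in its changes. The 0 min sample of YPS2073 had older prints on some of its arrays. The part of the older arrays was not tested.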

How the results depend on the processing

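Of 1318 single values recomputed under the alternatives, 1167 kept their direction and side of the threshold, 117 no longer passed, 13 newly passed and 21 turned sign. With 2007 prints alone, 2 members were lower at 24 min (1.73% of all genes lower) and 6 lower at 48 min (3.55% lower, 413 genes called in either direction). Under that setting 1 was higher late (2.4% of all genes higher, 306 called in either direction), and 16 curves varied and 9 differed in shape. With older prints alone limma called 0 genes and 0 members in all 3 changes (533, 472 and 449 genes and 5, 1 and 4 members at an unadjusted p under 0.05). Without the replicate block by strain, 138, 111 and 249 genes were called in the 3 changes. With each time relative to its set, 109 genes and 0 members were called at 24 min. Quantile normalization gave 7 varying curves and 2 shapes, and curves with 5 degrees of freedom 1 shape. A term for the set gave 23 and 11, where 6.71% and 5.33% of the gene curves of all strains did. Each of these, and 2007 prints, gave 1 level of at least 1. Apart from the set term, the shares over all genes are not given here for the counts of curves, shapes and levels. Such counts cannot be set against all genes. Set A alone gave 7 such levels and 20 higher genes, set B 11 lower, and YPS183 as comparator 8 such levels and 1 higher gene. Leaving out each strain in turn gave 137 to 531 genes and 2 to 5 lower members at 24 min, 68 to 305 and 0 to 2 at 48 min, 256 to 604 genes late, 0 to 6 varying curves, 1 to 2 levels of at least 1, 4 to 14 higher levels and 0 to 2 shapes.

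The signs that turned were those of GDB1 at 24 min (0.046 with 2007 prints, -0.082 to 0.079 without 1 strain, 0.25 relative to its set) and 48 min (-0.075 with 2007 prints, -0.044 to 0.146 without 1 strain), GPH1 at 24 min (0.25 relative to its set) and 48 min (-0.28 with 2007 prints), GLC3 (0.62), GSY1 (0.37), GSY2 (0.25), PGM2 (0.21) and TSL1 (0.078) at 48 min with older prints, the levels of TPS2 in YPS2067 in set A (-0.020), GSY1 in YPS3060 in set B (-0.081) and GSY2 in YPS3137 against YPS183 (-0.23), GSY2 between species (-0.025 to 0.165 without 1 strain, below 0 without YPS2055 or YPS2066), and GSY2 minus GSY1 late under quantile normalization (0.050). The cause was not tested. Fewer strains or samples enter the subsets. Signal over background was not analysed here.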

Other observations

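Single samples held the extremes of many of the 10 genes at once. In YPS2055 the 176 min sample had the highest value of 8 of them: GPH1 was at 0.90 there against a median of -1.27 in that strain, GSY2 at 0.59 against -1.18, and TSL1 at 0.96 against -0.51. In YPS2060 the 63 min sample had the lowest value of 8 of them, with PGM2 at -1.27 against a median of 0.74 and TPS2 at -0.52 against 0.92. The 63 min sample was also the lowest for 6 genes in YPS2079 and for 6 in YPS3060.

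In YPS2073 TSL1 was at -3.14 at 194 min and -2.16 at 48 min, with a strain median of -0.05. In YPS3137 NTH1 was at 1.61 at 251 min and -0.68 at 284 min, with a median of 0.25.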
